A study of Mus musculus with 6 samples.

Results

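The genes described here encode the proteins of the mitochondrial ribosome, or mitoribosome. They were chosen by symbol alone: every row whose symbol is Mrpl or Mrps followed by a number and at most 1 letter of a, b or c, 76 of the 23099 gene symbols in the files. Of these, 47 carry a large subunit symbol (Mrpl) and 29 a small subunit symbol (Mrps). RNA was taken from the whole pancreas of mice 8 weeks old, in 3 libraries labelled WT and 3 labelled Ela1-Myc, and the polyadenylated fraction was sequenced with strand kept. The replicate numbers used below are not labels of the data. They follow the order of the samples within each group, and equal numbers do not mark a pair. In Ela1-Myc mice an elastase promoter drives Myc in the acinar cells, which make the digestive enzymes; no other allele or treatment is labelled. Sex, strain and whether each library is 1 animal are not given in the sources used here, so the p-values speak only to the spread among these samples, which may be technical. Values are adjusted FPKM, fragments per kilobase of transcript scaled to the mapped fragments, divided by 100000; the nature of the adjustment is not given. Levels of different genes are set side by side here as values per length, on the assumption that the adjustment treats all genes alike.

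The mitoribosome translates the few messages encoded by mitochondrial DNA, all of them for subunits of the respiratory chain and ATP synthase. Its RNAs come from mitochondrial DNA, but its proteins are encoded in the nucleus, made in the cytosol and imported. The small subunit decodes the message, and the large subunit joins the amino acids and passes the growing chain through a tunnel to the inner membrane. Some of the proteins descend from bacterial ribosomal proteins and others are specific to mitochondria. Myc is a transcription factor known for raising genes of growth, including those of ribosome and mitochondrial biogenesis, and acinar cells are among the cells that make the most protein for export.

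The targeted gene separated the groups, with Myc at 0, 4.10 and 0 in WT replicates 1 to 3 and at 52, 34.4 and 34.2 in the Ela1-Myc libraries (limma adjusted p = 4.97e-05). Transcripts of the transgene and of the mouse's own Myc cannot be told apart. At most 1 of 9 acinar markers was at 0 in a library, and the digestive enzymes took 89.1 to 89.6% of the summed values in WT and 59.6 to 71.8% in Ela1-Myc. Among the 8802 tested genes, 592 to 1426 were listed at 0 in each WT library and 0 to 29 in each Ela1-Myc library. Read counts were not used here, so the depth is unknown and a listed 0 does not show absence. The RNA integrity number was 7.1 to 7.3 in WT and 7.2 to 8.8 in Ela1-Myc. On the deposited scale, markers of several other cell types were also higher in all 3 Ela1-Myc libraries than in all 3 WT libraries: the summed level of 9 macrophage markers was 0.952 to 48.0 in WT, with 3 to 6 of them at 0, and 311.5 to 973 in Ela1-Myc with none at 0. The summed levels were 48.9 to 112.2 and 371.2 to 573 for 7 stellate cell markers, 4.44 to 76.1 and 130.6 to 278 for 6 duct markers, and 12.4 to 18.8 and 27.9 to 34.0 for 6 endothelial markers. All 6 markers of dividing cells were at 0 in every WT library and summed to 26.3 to 41.3 in Ela1-Myc, while lymphocyte, islet and adipocyte markers overlapped between the groups. After the median-of-ratios scaling described below, the macrophage, stellate cell and dividing cell sums stayed apart, and duct (11.1 to 88.6 in WT, 82.4 to 170.6 in Ela1-Myc) and endothelial sums (21.1 to 35.1 and 16.2 to 22.4) overlapped. The part of these cells, of RNA quality and of the zeros in the results below was not tested, and in whole tissue fewer cells of a type and less RNA per cell cannot be told apart.

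Most mitoribosomal genes were higher in Ela1-Myc pancreas on the deposited scale, about as often as other genes were. The values of the 76 genes summed to 328.4, 962.8 and 419 in WT replicates 1 to 3 and to 1553, 1443 and 1322 in Ela1-Myc replicates 1 to 3. The groups did not overlap, and WT replicate 2 stood well above the other WT libraries: it held the highest WT value for 75 of the 76 genes. Among the 75 genes tested (Mrpl19 had a mean below 1), 56 were higher in Ela1-Myc and 0 were lower at a limma adjusted p under 0.05, against 70.2% and 0.239% of all 8802 tested genes. At an unadjusted p under 0.05, 60 were higher and 0 lower. The share of all tested genes at that threshold is not given here, so this count is not read as a result about the members. For 12 of the 75 the WT mean was below 1, so that they passed the filter only through their Ela1-Myc values and had to differ upward; no count over the tested members is read as support. The median log2 change, of log2(value + 1), was 1.45 for the large subunit, with 34 of 46 genes higher, and 1.47 for the small subunit, with 22 of 29 higher; the median over all tested genes was 1.22. For 66 of the 76 genes the lowest Ela1-Myc value exceeded the highest WT value, and for 10 the groups overlapped; among tested genes 65 of 75 did so, against a background of 75.3%. The fold between group means ran from 1.35 to 12.2 with a median of 3.13 over the 71 genes above 0 in all 6 libraries.

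**Figure D1:**
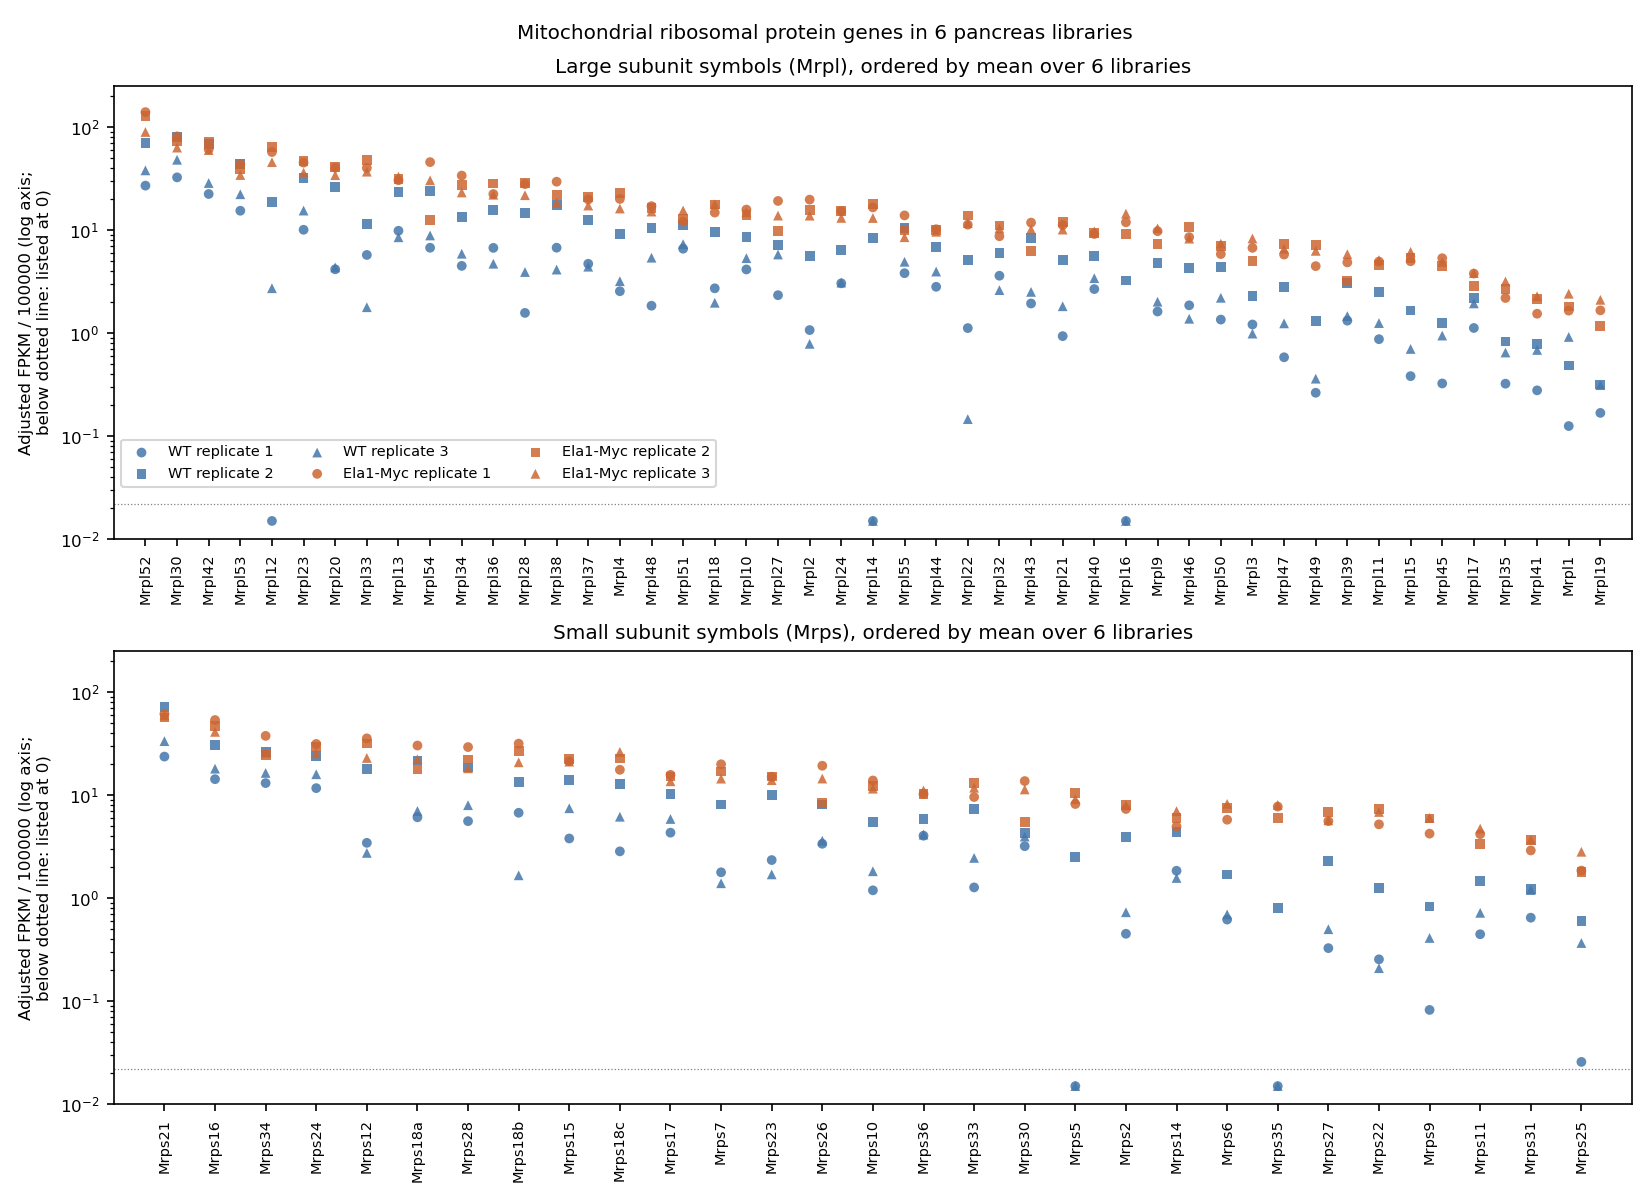
Adjusted FPKM divided by 100000 of each gene in each library, on a log axis, for the 47 large subunit and 29 small subunit symbols in order of their mean; blue marks WT, orange marks Ela1-Myc, and the 3 shapes are replicates 1 to 3. Blue squares (WT replicate 2) lie closest to the orange symbols, and points under the dotted line are the 9 values listed at 0, all of them in WT replicates 1 and 3.

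Relative to the other genes of the same library, little of this difference remained. Median-of-ratios scaling divides each library by its median ratio to the typical library over genes above 0 in all 6, and it moved the median of all tested genes from 1.22 to 0.223 log2 units. The divisors were 0.400, 0.860 and 0.587 for WT replicates 1 to 3 and 1.59, 1.51 and 2.06 for Ela1-Myc replicates 1 to 3. On that scale 9 of the 75 genes were higher and 0 lower in limma, against 17.0% and 7.08% of all tested genes. At an unadjusted p under 0.05, 17 were higher and 4 lower, again without the share of all tested genes at that threshold. The median log2 change fell to 0.198 for the large subunit (4 of 46 higher) and to 0.385 for the small subunit (5 of 29 higher), or to 0.169 and 0.275 among members above 0 in all 6 libraries; the medians were not tested against each other. Leaving out the digestive enzymes and making the library totals equal gave 22 higher and 0 lower members, against 25.4% and 3.35% of all tested genes. Among genes above 0 in all 6 libraries, 54 of 70 members were higher and 0 lower on the deposited scale (background 68.7% and 0.429%), and 9 and 0 after scaling (background 9.21% and 9.78%). The summed scaled values overlapped, at 821, 1120 and 713 in WT and 979.6, 953 and 641 in Ela1-Myc. Leaving out 1 library moved the counts: on the deposited scale 36 genes were higher without Ela1-Myc replicate 3, 37 without Ela1-Myc replicate 1 and 75 without WT replicate 2, as the share of all tested genes went to 49.5, 58.9 and 81.1%. In all 6 such fits 32 of the 56 kept their call. A member whose mean fell below 1 in a fit was counted as lost, as Mrpl1 was without Ela1-Myc replicate 3. The share of all tested genes that kept their call is not given here, so this count is not read as a result about the members. After scaling the 9 became 5, 21 and 4 when WT replicate 1, 2 or 3 was left out, and 5, 2 and 1 when that was done with Ela1-Myc replicate 1, 2 or 3. The shares of all tested genes in those fits were 19.5, 21.3 and 10.8%, and 12.4, 6.24 and 5.37%. Of the 9 genes called after scaling, 7 (Mrpl15, Mrpl45, Mrpl49, Mrps5, Mrps9, Mrps22 and Mrps35) had a WT mean below 1 and passed the filter only through their Ela1-Myc values, so these calls are not read as support.

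**Figure D2:**
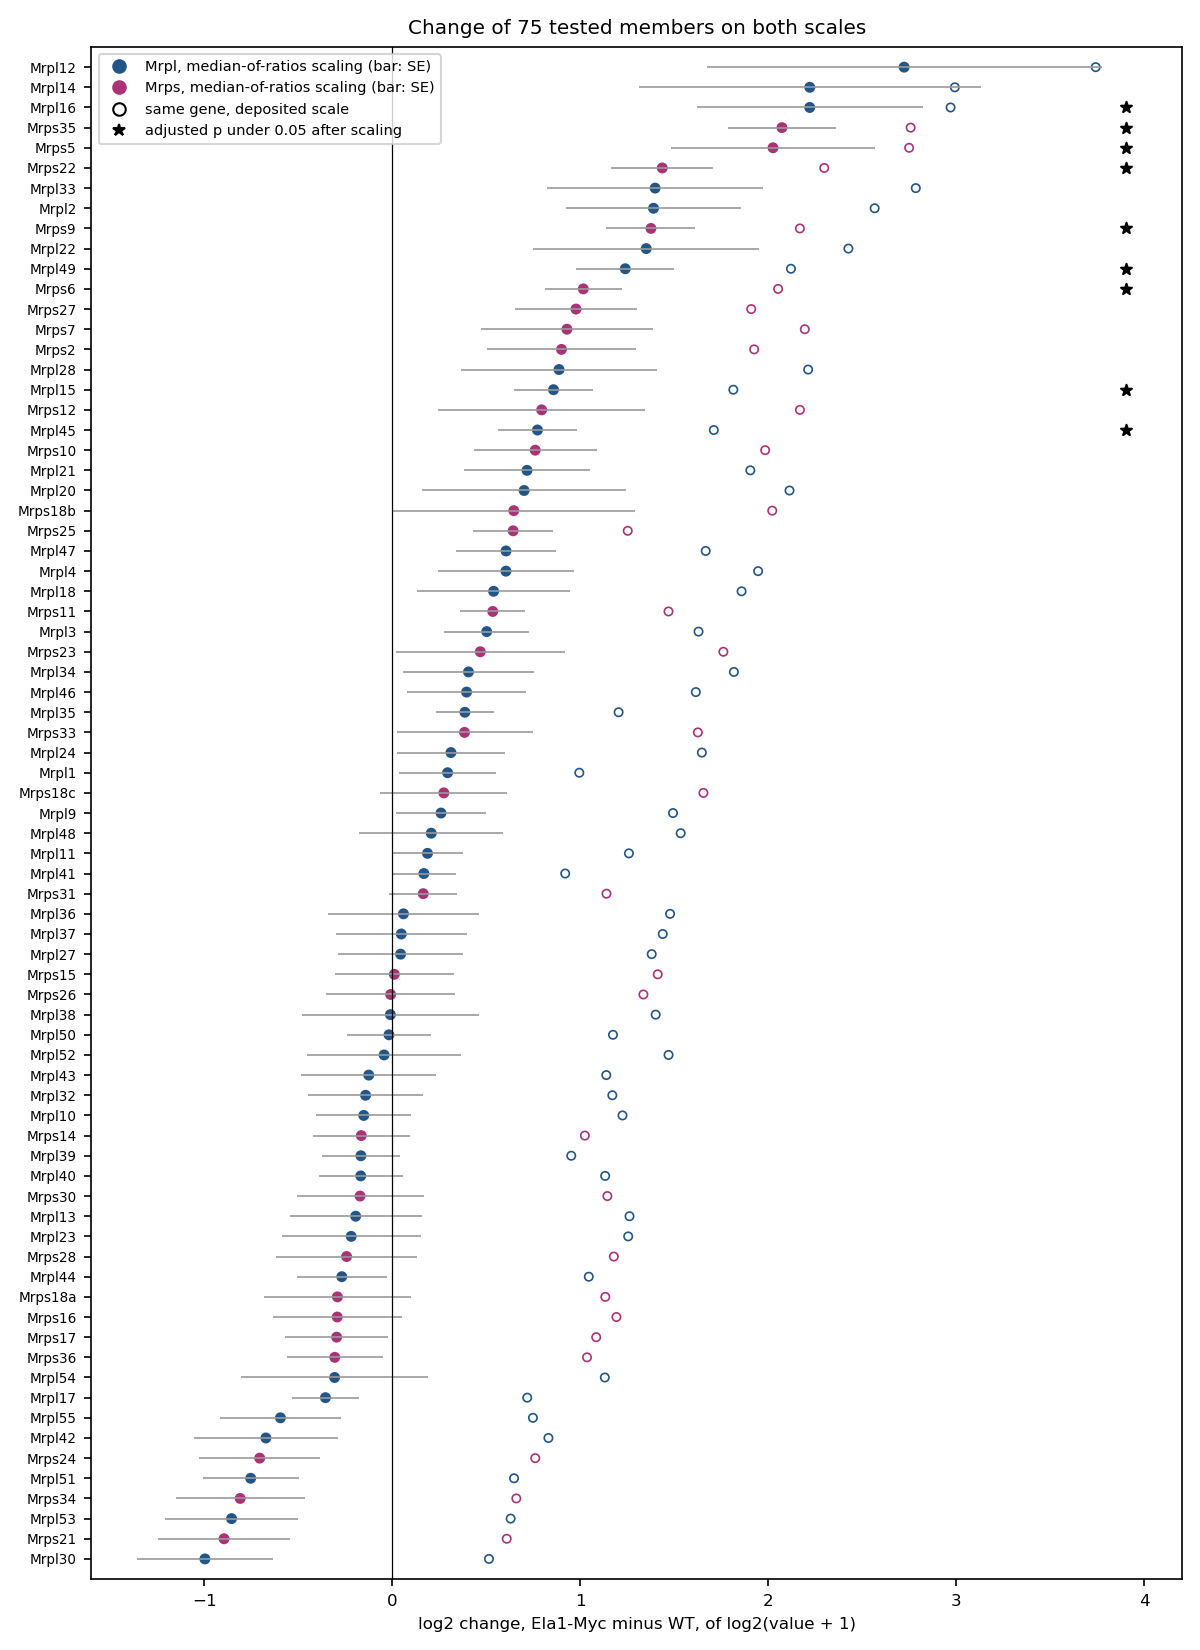
Fitted log2 change, Ela1-Myc minus WT, of log2(value + 1) for the 75 tested genes; filled points with standard-error bars are after median-of-ratios scaling, open circles the same genes on the deposited scale. All open circles lie right of 0, from 0.51 to 3.74, while 29 filled points lie left of 0 and 9 stars mark the genes called after scaling.

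Measures taken within a library, which a single scaling factor per library cannot move, gave a mixed picture. The authors' adjustment is not stated, and one that depends on the level of a gene could move them. As a share of all values outside the digestive enzymes, the 76 genes made up 0.449, 0.461 and 0.342% in WT and 0.505, 0.568 and 0.547% in Ela1-Myc, so every Ela1-Myc library lay above every WT library. Set against the 77 cytosolic ribosomal protein genes, whose products build the ribosomes of the cytosol, they stood at 3.60, 2.48 and 2.47% of the cytosolic sum for WT, and 1.95, 2.10 and 2.46% for Ela1-Myc. That share was lower in every Ela1-Myc library, although WT replicate 3 and Ela1-Myc replicate 3 were nearly level. A further 80 nuclear genes were chosen by symbols of the kind given to respiratory chain and ATP synthase subunits. Such a choice can take in genes that are not subunits. Against these 80 the shares were 19.8, 16.9 and 17.3% in WT and 19.3, 19.9 and 20.3% in Ela1-Myc, and the groups overlapped. The sum of large over small subunit values was 1.79, 1.91 and 1.83 in WT and 1.96, 2.10 and 1.90 in Ela1-Myc. This ratio, 1.84 ± 0.0579 for WT and 1.99 ± 0.107 for Ela1-Myc (SD, n = 3 libraries), overlapped between the groups, since WT replicate 2 lay above Ela1-Myc replicate 3. The 5 members with the highest mean over all 6 libraries, Mrpl52, Mrpl30, Mrpl42, Mrps21 and Mrps16, took 36.5, 33.2 and 39.6% of the mitoribosomal sum in WT and 25.5, 26.0 and 23.7% in Ela1-Myc, a lower share in every Ela1-Myc library. That mean gives the Ela1-Myc values more weight; by the WT mean alone Mrpl53 would take the place of Mrps16. With 3 libraries against 3 an exact two-sided permutation test cannot go below p = 0.1, and none is given for these sums.

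**Figure D3:**
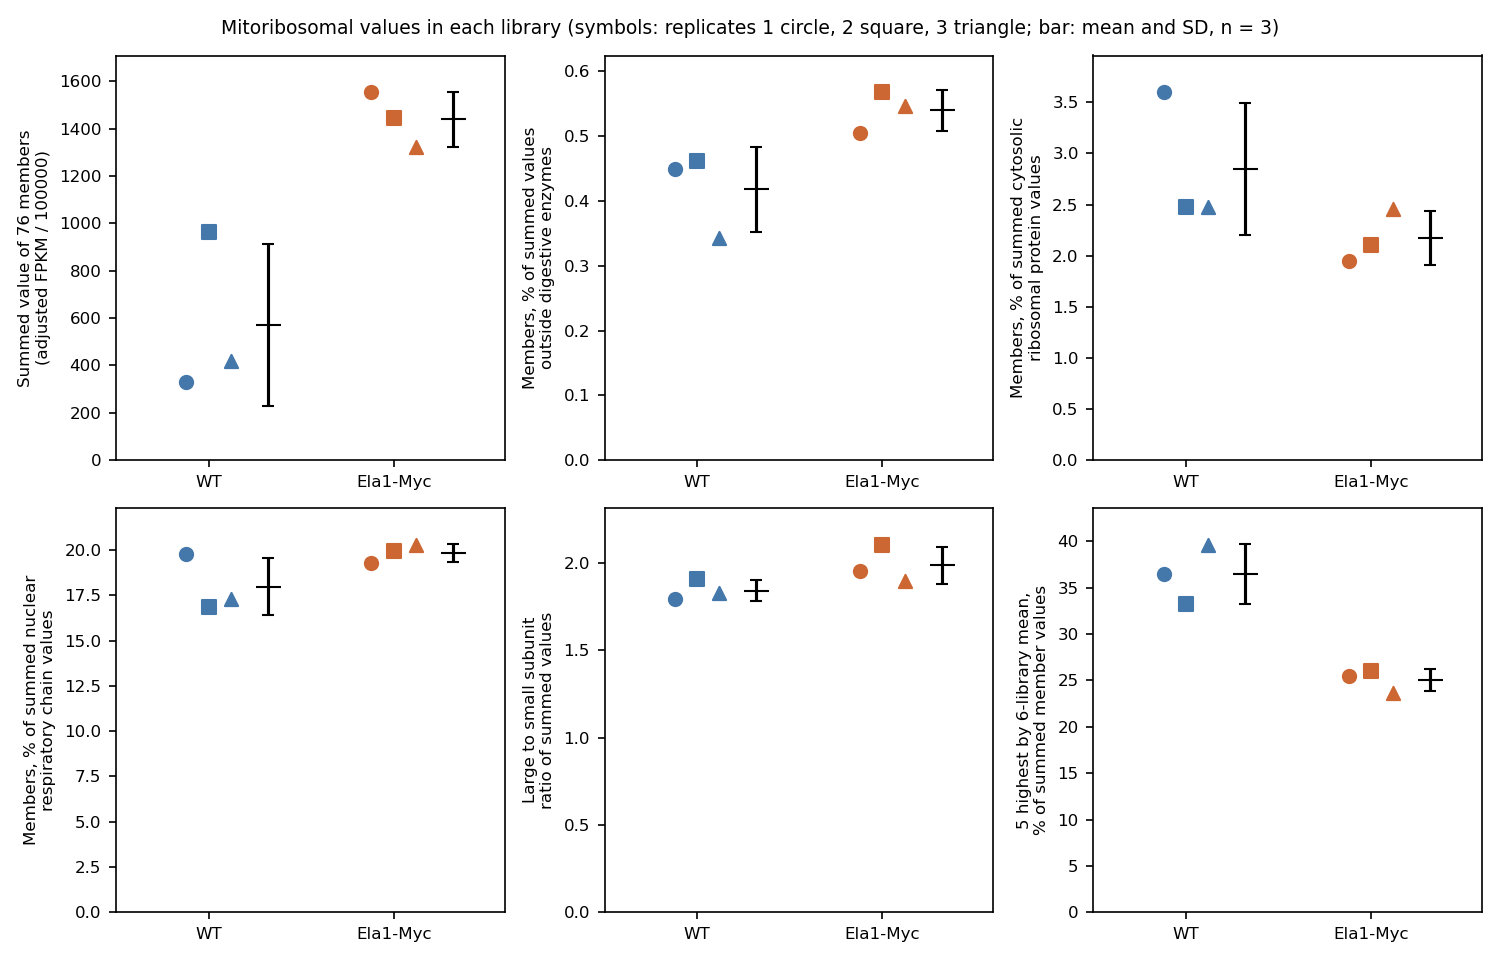
Measures per library: the summed value of the 76 genes (adjusted FPKM divided by 100000), their percentage of other gene groups, the ratio of large to small subunit sums and the share of the 5 members with the highest mean over all 6 libraries; symbols are libraries, bars the mean and SD of 3. The share outside digestive enzymes is higher and the share of these 5 members lower in all 3 Ela1-Myc libraries, while the subunit ratio overlaps.

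The promoters of the members were read for letters known to bind regulators of growth and of mitochondria. RefSeq (GRCm38.p6) gave a promoter for 67 of the 76 genes, each 300 bases long, from 250 before to 50 after the start; the other 9 are Mrpl4, Mrpl13, Mrpl15, Mrpl19, Mrpl38, Mrpl54, Mrps28, Mrps34 and Mrps35. Both strands were searched for 4 motifs, none of which contains another. A gene with several promoters was counted if any of them matched. CACGTG, the E-box that Myc and its partner Max bind, was in 5 of the 67 (7.46%). The shares were 8.09% of all 27025 genes with a promoter and 12.5% of the 6318 tested genes with one. The site of NRF1, a regulator of nuclear genes for mitochondria (GCGCA and GCGC with any 1 base between them), was in 12 (17.9%), against 5.19% of all genes with a promoter and 12.3% of tested genes with one. CCGGAAGT, bound by ETS factors such as GABPA, was also in 12 (17.9%), against 4.31% and 9.80%, and AAGATGGCG, bound by YY1, in 8 (11.9%), against 1.64% and 3.88%. A match lay within the 250 bases before the start in 5 E-box, 9 NRF1 and 10 ETS carriers, but in only 2 of the 8 YY1 carriers. In the other carriers it lay wholly or partly after the start. The median GC content was 58.0% in the members' promoters, 60.7% in those of tested genes and 52.75% in all; a match is a description of letters and no test of binding was made.

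The stretches below are the 250 bases before the start, 5′ to 3′ on the gene's strand, with the motif in capitals. They are shown because they bear 1 example of each of 3 motifs among members described below: Mrpl2 with the largest change among the 5 E-box carriers, Mrpl12 and Mrpl30 as NRF1 carriers at opposite ends of the change, and Mrps22 with an ETS site near its start. The NRF1 letters printed are the reverse complement of the motif as spelled above.
Mrpl2 (chr17:46645971-46646220, forward strand): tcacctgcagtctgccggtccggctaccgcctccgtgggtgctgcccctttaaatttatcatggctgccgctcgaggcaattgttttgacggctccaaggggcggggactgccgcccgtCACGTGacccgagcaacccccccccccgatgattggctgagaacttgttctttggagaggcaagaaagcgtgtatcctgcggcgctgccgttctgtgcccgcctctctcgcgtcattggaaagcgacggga
Mrpl12 (chr11:120484387-120484636, forward strand): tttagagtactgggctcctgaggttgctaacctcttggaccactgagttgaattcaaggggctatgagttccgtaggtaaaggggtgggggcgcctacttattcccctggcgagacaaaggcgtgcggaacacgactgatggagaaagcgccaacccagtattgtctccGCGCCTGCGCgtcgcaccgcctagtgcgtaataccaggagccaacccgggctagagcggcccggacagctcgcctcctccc
Mrpl30 (chr1:37890227-37890476, forward strand): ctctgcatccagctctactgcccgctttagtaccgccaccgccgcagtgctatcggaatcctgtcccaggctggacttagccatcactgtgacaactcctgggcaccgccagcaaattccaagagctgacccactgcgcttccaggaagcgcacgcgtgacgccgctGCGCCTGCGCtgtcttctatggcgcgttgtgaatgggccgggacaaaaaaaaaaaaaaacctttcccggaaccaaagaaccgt
Mrps22 (chr9:98601680-98601929, reverse strand): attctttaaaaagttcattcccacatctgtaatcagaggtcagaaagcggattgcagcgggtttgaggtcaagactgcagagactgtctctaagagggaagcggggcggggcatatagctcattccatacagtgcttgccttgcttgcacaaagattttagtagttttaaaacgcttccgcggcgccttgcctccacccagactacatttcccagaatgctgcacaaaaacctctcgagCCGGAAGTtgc

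The changes of carriers of a motif are given beside those of the other members, with no test of the difference. The median log2 change after scaling was 0.27 in the 5 E-box carriers and 0.28 in the other members with a promoter. It was -0.07 and 0.31 with and without the NRF1 letters, 0.24 and 0.29 for the ETS letters, and 0.05 and 0.29 for the YY1 letters. All 5 E-box carriers, Mrpl2, Mrpl20, Mrpl36, Mrpl37 and Mrps18c, were higher on the deposited scale and none after scaling, against 70.2% and 17.0% of all tested genes and 56 and 9 of the 75 members. A large and a small subunit gene share 1 promoter region: Mrpl46 (chromosome 7, 78775341 to 78783089) and Mrps11 (chromosome 7, 78783131 to 78792988) point away from each other across a gap of 41 bases, printed here whole on the forward strand.
Mrpl46-Mrps11 gap (chr7:78783090-78783130): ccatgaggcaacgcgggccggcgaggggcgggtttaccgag

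Mrpl46, a protein of the large subunit's central protuberance, stood at 1.86, 4.28 and 1.38 (WT) and 8.54, 10.7 and 8.25 (Ela1-Myc). Mrps11, a protein of the small subunit's platform, stood at 0.447, 1.46 and 0.721 (WT) and 4.18, 3.38 and 4.74 (Ela1-Myc). Both rose on the deposited scale, by 1.61 ± 0.42 and 1.47 ± 0.31 log2 units (SE; limma adjusted p = 0.00405 and 0.00106), and neither was called after scaling, at 0.40 and 0.53 (adjusted p = 0.380 and 0.0651).

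The stalk of the large subunit, which recruits translation factors, had 3 of its 4 listed genes higher on the deposited scale and 0 called after scaling in limma, against the 70.2% and 17.0% of all tested genes called higher. Mrpl12, the protein of the flexible stalk (chromosome 11, 120484669 to 120488754), was at 0, 18.7 and 2.72 (WT) and 57.2, 63.9 and 45.6 (Ela1-Myc). WT replicate 1 is listed at 0 and every Ela1-Myc value was above every WT value. Its fitted change of 3.74 ± 0.85 log2 units (SE; limma adjusted p = 0.00178) was the largest of the 75 and depends on the pseudocount because of that 0; after scaling it was 2.72 ± 1.05 and not called (adjusted p = 0.101). Mrpl10, which ties the stalk to the body, was at 4.14, 8.62 and 5.33 (WT) and 15.8, 14 and 14.9 (Ela1-Myc). Mrpl11, at the base of the stalk, was at 0.872, 2.51 and 1.25 (WT) and 4.94, 4.58 and 5.11 (Ela1-Myc). Their groups did not overlap, and the changes were 1.22 ± 0.49 (adjusted p = 0.0366) and 1.26 ± 0.34 (adjusted p = 0.00496), or -0.15 and 0.19 after scaling. The mitochondrion-specific Mrpl53 beside them was at 15.4, 43.7 and 22.2 (WT) and 43.9, 38.9 and 34.2 (Ela1-Myc): WT replicate 2 reached the level of Ela1-Myc replicate 1, and the change of 0.63 ± 0.68 was not called (adjusted p = 0.398). The call of Mrpl10 was lost in each fit without 1 library other than WT replicate 2.

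The rim of the exit tunnel, where the new chain meets the inner membrane, had 5 of its 6 listed genes higher on the deposited scale and 1 after scaling, near the 70.2% and 17.0% of all tested genes. The 1 was Mrpl45, the anchor that holds the mitoribosome to the inner membrane (chromosome 11, 97315716 to 97329920), at 0.324, 1.26 and 0.945 (WT) and 5.33, 4.46 and 4.91 (Ela1-Myc). Every Ela1-Myc value was above every WT value. It rose by 1.71 ± 0.31 log2 units (SE; adjusted p = 0.000407) and by 0.77 ± 0.21 after scaling (adjusted p = 0.0412). Mrpl22, at the tunnel's wall and rim, was at 1.12, 5.11 and 0.146 (WT) and 11.3, 13.8 and 11.7 (Ela1-Myc), with WT replicate 3 lowest by far. Its rise of 2.43 ± 0.53 (adjusted p = 0.00136) was not called after scaling, at 1.35 ± 0.60 (adjusted p = 0.141). Mrpl24 was at 3.04, 6.36 and 3.09 (WT) and 15.2, 15.3 and 13.1 (Ela1-Myc), and Mrpl44, which has a ribonuclease-like fold, at 2.81, 6.81 and 3.95 (WT) and 10.2, 9.94 and 9.61 (Ela1-Myc). Both rose, by 1.65 (adjusted p = 0.00673) and 1.05 (adjusted p = 0.0478), and were at 0.31 and -0.27 after scaling. The scaled call of Mrpl45 stood only in the fit without WT replicate 2 among those that leave out 1 library, and the deposited-scale call of Mrpl44 was lost in the 5 other such fits. Mrpl24 and Mrpl44 overlap other coding genes (Rrnad1 and Wdfy1), and whether reads were assigned by strand is not stated.

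In the central protuberance, the crown of the large subunit that touches the transfer RNAs, 5 of 7 listed genes were higher on the deposited scale, near the 70.2% of all tested genes, and 0 were called after scaling in limma, against 17.0% called higher. Mrpl18, which sits there with the subunit's small structural RNA, was at 2.72, 9.55 and 1.97 (WT) and 14.8, 17.7 and 17.8 (Ela1-Myc). WT replicate 2 was again the highest WT library, all Ela1-Myc values were above it, and the rise was 1.86 ± 0.54 (adjusted p = 0.00784), or 0.54 ± 0.41 after scaling (adjusted p = 0.351). Mrpl38 was at 6.74, 17.5 and 4.13 (WT) and 29.4, 21.9 and 18.5 (Ela1-Myc) and missed the threshold at 1.40 ± 0.60 (adjusted p = 0.0506); after scaling its change was -0.00935. Mrpl52, the member with the highest mean over all 6 libraries, was at 27, 69.4 and 37.9 (WT) and 139, 127 and 89.4 (Ela1-Myc). Its groups did not overlap, but the change of 1.47 ± 0.75 was not called (adjusted p = 0.0907), and after scaling it was -0.0430. Mrpl50, another mitochondrion-specific protein, outside the protuberance list, was at 1.35, 4.34 and 2.20 (WT) and 5.84, 7.06 and 7.37 (Ela1-Myc); it rose by 1.17 (adjusted p = 0.0176) and lay at -0.0169 after scaling, and its call was lost without WT replicate 1, Ela1-Myc replicate 2 or Ela1-Myc replicate 3.

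The 5 members described next, all of bacterial type, rose on the deposited scale; they are single genes and no list of their region was tested. Mrpl2 (chromosome 17, 46646248 to 46650132), whose E-box promoter is printed above, was at 1.07, 5.63 and 0.785 (WT) and 19.7, 15.6 and 13.8 (Ela1-Myc). Mrpl3 was at 1.21, 2.28 and 0.988 (WT) and 6.71, 4.97 and 8.27 (Ela1-Myc), and Mrpl4, which lines the tunnel, at 2.55, 9.18 and 3.19 (WT) and 20.0, 23 and 16.2 (Ela1-Myc). The changes of the 3 genes were 2.57 ± 0.52, 1.63 ± 0.36 and 1.95 ± 0.53 log2 units (SE; adjusted p = 0.000838, 0.00146 and 0.00576). After scaling they were 1.39, 0.50 and 0.61, with Mrpl2 closest to the threshold (adjusted p = 0.0703) and its groups and those of Mrpl3 still apart. Mrpl28 was at 1.57, 14.6 and 3.91 (WT) and 27.9, 28.8 and 21.8 (Ela1-Myc), and Mrpl33, like it of bacterial type, at 5.73, 11.5 and 1.78 (WT) and 40.1, 48.1 and 36.8 (Ela1-Myc). They rose by 2.21 and 2.78 (adjusted p = 0.00782 and 0.00186) and were not called after scaling, at 0.89 and 1.40 (adjusted p = 0.242 and 0.116).

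Large subunit genes listed at 0 in WT replicates 1 and 3 were Mrpl14 and Mrpl16. Mrpl14, at the face that meets the small subunit, was at 0, 8.31 and 0 (WT) and 16.6, 17.9 and 13.1 (Ela1-Myc). Mrpl16 (chromosome 19, 11770415 to 11774946), near the transfer RNA sites, was at 0, 3.23 and 0 (WT) and 11.9, 9.23 and 14.4 (Ela1-Myc). Every Ela1-Myc value was above WT replicate 2, the only WT library with a value above 0 for these genes. In limma, with the zeros taken as measured values, the changes were 2.99 ± 0.68 and 2.97 ± 0.50 (adjusted p = 0.00187 and 0.000255); after scaling Mrpl16 alone was called of the pair (adjusted p = 0.117 for Mrpl14 and 0.0396 for Mrpl16). Mrpl15 (chromosome 1, 4773200 to 4785726), a core protein of bacterial type, had no 0, at 0.382, 1.66 and 0.701 (WT) and 4.98, 5.36 and 6.14 (Ela1-Myc). Mrpl49 (chromosome 19, 6053630 to 6057751), a mitochondrion-specific protein, was at 0.263, 1.30 and 0.361 (WT) and 4.46, 7.19 and 6.28 (Ela1-Myc). The groups of both genes were apart; Mrpl15 rose by 1.81 ± 0.33 and Mrpl49 by 2.12 ± 0.33 (adjusted p = 0.000405 and 0.000153), while the scaled changes were 0.86 ± 0.21 and 1.24 ± 0.26 (adjusted p = 0.0281 and 0.0182). The scaled calls of Mrpl15 and Mrpl16 each stood in 1 of the 6 fits that leave out a library, the one without WT replicate 2, and that of Mrpl49 was lost without WT replicate 3, Ela1-Myc replicate 2 or Ela1-Myc replicate 3. Mrpl49 overlaps the coding gene Syvn1, an enzyme of protein quality control in the endoplasmic reticulum.

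After scaling, the 4 lowest adjusted p-values among the members were those of the small subunit genes Mrps35, Mrps9, Mrps22 and Mrps6, of which the first 3 had a WT mean below 1 and passed the filter only through their Ela1-Myc values. Mrps35 (chromosome 6, 147042770 to 147070902), a mitochondrion-specific protein of the subunit's head, was at 0, 0.796 and 0 (WT) and 7.74, 6.03 and 8.03 (Ela1-Myc). WT replicates 1 and 3 are listed at 0, and the lowest Ela1-Myc value was far above WT replicate 2. Its change was 2.76 ± 0.32 log2 units (SE; limma adjusted p = 2.02e-05) and 2.07 ± 0.29 after scaling (adjusted p = 0.00450), and the scaled call stood in all 6 fits that leave out a library. Mrps9 (chromosome 1, 42851233 to 42905683), a head protein of bacterial type, was at 0.0823, 0.830 and 0.411 (WT) and 4.23, 5.92 and 6 (Ela1-Myc). Mrps22 (chromosome 9, 98588730 to 98601679), which is specific to mitochondria and mutated in a human mitochondrial disease, was at 0.255, 1.27 and 0.209 (WT) and 5.21, 7.37 and 6.87 (Ela1-Myc). Both had non-overlapping groups, with folds between group means of 12.2 and 11.2, rises of 2.17 ± 0.31 and 2.30 ± 0.33 (adjusted p = 7.37e-05 and 9.27e-05), and rises after scaling of 1.38 ± 0.24 and 1.44 ± 0.27 (adjusted p = 0.00957 and 0.0136). The scaled call of Mrps9 was lost without Ela1-Myc replicate 3 (adjusted p = 0.0522), and that of Mrps22 without Ela1-Myc replicate 2 or 3 (highest adjusted p = 0.0613).

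Mrps6 (chromosome 16, 92058336 to 92112227), a platform protein of bacterial type, was at 0.620, 1.70 and 0.696 (WT) and 5.78, 7.47 and 8.23 (Ela1-Myc). Mrps5 (chromosome 2, 127587426 to 127603986), at the channel where the message enters, was at 0, 2.51 and 0 (WT) and 8.20, 10.4 and 9.15 (Ela1-Myc). All Ela1-Myc values of both genes were above WT replicate 2, the highest WT library. They rose by 2.05 ± 0.34 and 2.75 ± 0.45 (adjusted p = 0.000236 and 0.000197), and the scaled rises were 1.02 ± 0.21 and 2.03 ± 0.54 (adjusted p = 0.0165 and 0.0380). The scaled call of Mrps6 was lost without Ela1-Myc replicate 2 or 3, and that of Mrps5 in each fit except that without WT replicate 2. The locus of Mrps6 overlaps Slc5a3, a transporter gene.

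The next 5 small subunit genes, described singly, rose on the deposited scale and were not called after scaling. Mrps12, which lines the decoding centre, was at 3.44, 18 and 2.75 (WT) and 35.6, 31.8 and 22.9 (Ela1-Myc), and Mrps7, a head protein near the exiting message, at 1.78, 8.10 and 1.40 (WT) and 19.9, 17 and 14.5 (Ela1-Myc). They rose by 2.17 ± 0.66 and 2.19 ± 0.54 (adjusted p = 0.00988 and 0.00310); after scaling the changes were 0.79 and 0.93 (adjusted p = 0.314 and 0.174). The call of Mrps12 was lost without Ela1-Myc replicate 1. Mrps14 was at 1.85, 4.40 and 1.57 (WT) and 4.96, 5.97 and 7 (Ela1-Myc), Mrps15 at 3.80, 14.1 and 7.46 (WT) and 21.3, 22.3 and 21.2 (Ela1-Myc). The mitochondrion-specific Mrps26 was at 3.37, 8.12 and 3.61 (WT) and 19.3, 8.41 and 14.5 (Ela1-Myc), so that Ela1-Myc replicate 2 lay just above WT replicate 2. These 3 had the smallest absolute changes of the small subunit after scaling, at -0.16, 0.0115 and -0.00814, and rose by 1.02, 1.41 and 1.34 on the deposited scale (adjusted p = 0.0305, 0.0392 and 0.0302). Without WT replicate 1 or 3, or Ela1-Myc replicate 1 or 3, the calls of all 3 were lost, and those of Mrps14 and Mrps15 also without Ela1-Myc replicate 2.

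Bacteria have a single S18 protein, and mammals have a family of 3 related mitochondrial genes that did not all pass the test. Mrps18b was at 6.74, 13.4 and 1.67 (WT) and 31.6, 26.9 and 20.8 (Ela1-Myc). Mrps18c was at 2.85, 12.9 and 6.17 (WT) and 17.6, 22.7 and 26.3 (Ela1-Myc). Mrps18a, which structures place in the large subunit, was at 6.10, 21.7 and 7.02 (WT) and 30.3, 17.7 and 22.3 (Ela1-Myc), with Ela1-Myc replicate 2 below WT replicate 2. Mrps18b and Mrps18c rose by 2.02 ± 0.64 and 1.66 ± 0.58 (SE; adjusted p = 0.0122 and 0.0209), and Mrps18a was not called at 1.13 ± 0.62 (adjusted p = 0.109). After scaling the 3 were at 0.65, 0.27 and -0.29, none called, and the difference between the 3 genes was not tested. Mrps30, also a large subunit protein by structure, was at 3.20, 4.28 and 3.96 (WT) and 13.7, 5.53 and 11.4 (Ela1-Myc), and Mrps36, now known as a part of the alpha-ketoglutarate dehydrogenase complex, at 4.04, 5.85 and 4.14 (WT) and 10.3, 10.2 and 11.1 (Ela1-Myc). They rose by 1.14 and 1.04 (adjusted p = 0.0344 and 0.0440) and turned to -0.17 and -0.31 after scaling. The call of Mrps18b was lost without WT replicate 3 or Ela1-Myc replicate 1, that of Mrps18c without WT replicate 1 or any 1 Ela1-Myc library, that of Mrps30 without WT replicate 1 or 3 or Ela1-Myc replicate 1 or 3, and that of Mrps36 without any 1 library except WT replicate 2.

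Several abundant members were not called on the deposited scale. Mrpl30 (chromosome 1, 37890553 to 37898333), of bacterial type and with the NRF1 letters printed above, was at 32.4, 79.8 and 48.1 (WT) and 81.1, 72.5 and 63.1 (Ela1-Myc). Mrps21 (chromosome 3, 95862652 to 95870619), also of bacterial type, was at 23.7, 71.2 and 33.4 (WT) and 61.4, 56.6 and 59.6 (Ela1-Myc). In both, WT replicate 2 lay within or above the Ela1-Myc values and the groups overlapped. Their changes of 0.51 ± 0.73 and 0.61 ± 0.72 were not called (adjusted p = 0.523 and 0.446), and after scaling every Ela1-Myc value lay below every WT value, with changes of -0.996 ± 0.36 and -0.89 ± 0.35 that were not called either (adjusted p = 0.0873 and 0.104). Mrps16 was at 14.3, 30.6 and 18.1 (WT) and 53.6, 46.9 and 41.1 (Ela1-Myc) with groups apart, and its change of 1.19 was not called (adjusted p = 0.113; -0.29 after scaling). Mrps34, another mitochondrion-specific protein, was at 13.1, 26.4 and 16.4 (WT) and 37.6, 24.6 and 25.9 (Ela1-Myc), and its change was 0.66 (adjusted p = 0.337) or -0.81 after scaling. Quantile normalization, which gives every library the same distribution, was the only 1 of the 4 scales tried with lower calls: Mrpl17, Mrpl30, Mrpl42, Mrpl51, Mrpl53, Mrpl55, Mrps21 and Mrps34 were called lower, 8 of 75 against 20.0% of all tested genes, and 8 were called higher against 11.3%. On the deposited scale the changes of Mrpl17, Mrpl42, Mrpl51 and Mrpl55 were 0.72, 0.83, 0.65 and 0.75, all uncalled (adjusted p = 0.0526, 0.305, 0.244 and 0.179). After median-of-ratios scaling 11 of the 76 genes had all Ela1-Myc values below all WT values and 18 had them above; among tested genes the backgrounds were 17.2% and 28.9%, against 11 and 17 of 75.

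The members were also grouped by descent, with Mrps18a, Mrps30 and Mrps36, described above, set apart. Among the 4 main classes, the mitochondrion-specific proteins of the large subunit had the lowest median and those of the small subunit the highest. In the large subunit 24 of 29 tested genes with a bacterial counterpart were higher, with a median log2 change of 1.65, and 10 of 17 mitochondrion-specific genes, with a median of 1.14. In the small subunit the counts were 11 of 16 and 9 of 10, with medians of 1.56 and 1.69. After scaling the 4 medians were 0.41, -0.04, 0.40 and 0.56 in the same order, with 2, 2, 3 and 2 genes called higher, against the median of 0.22 over all tested genes. Of all tested genes 70.2% were called higher on the deposited scale and 17.0% after scaling. These are descriptions of lists of 10 to 29 genes, and their differences were not tested.

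**Figure D4:**
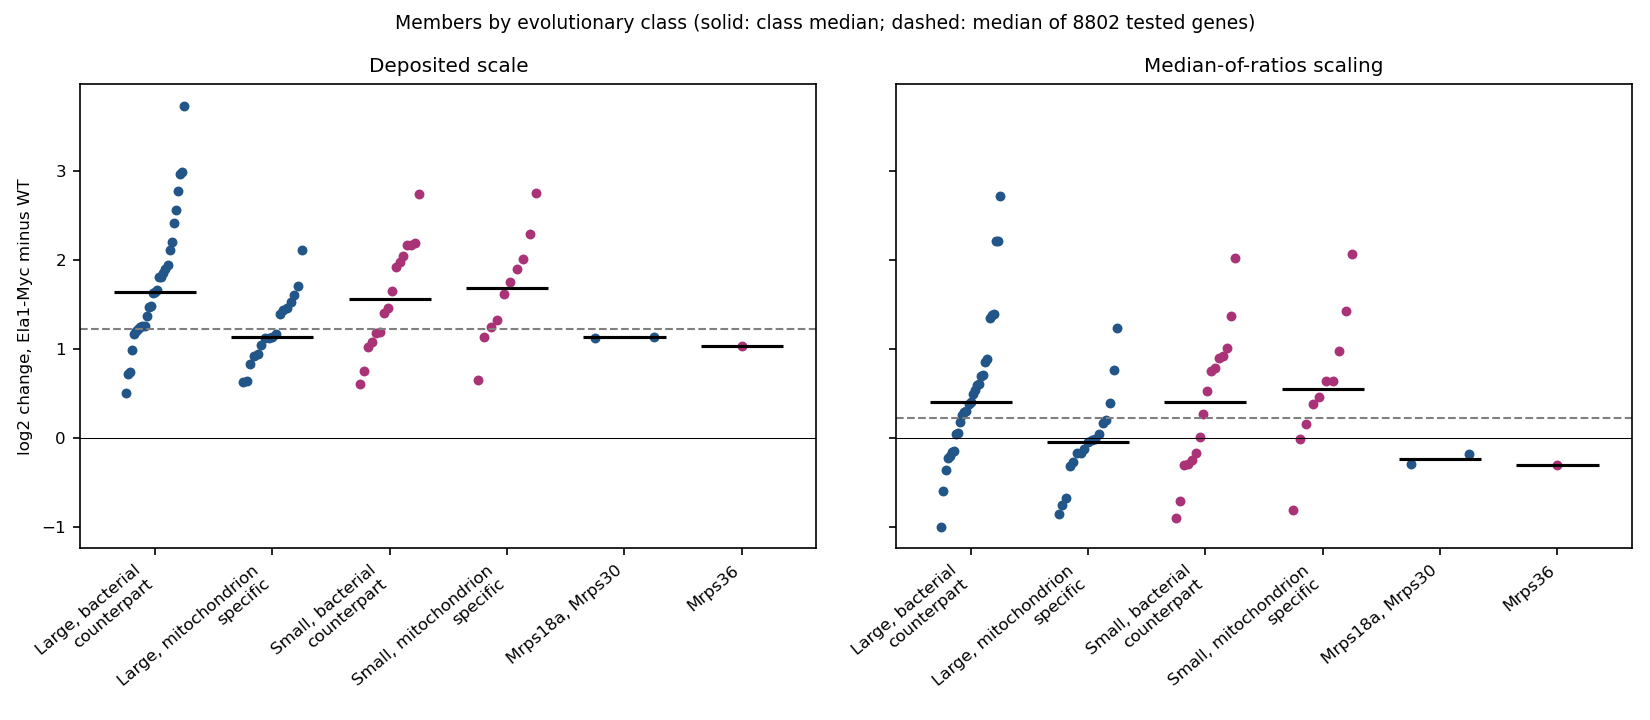
Fitted log2 change, Ela1-Myc minus WT, of each tested gene by descent and subunit, on the deposited scale (left) and after median-of-ratios scaling (right); solid lines are class medians and the dashed line is the median of the 8802 tested genes. The classes overlap widely, with medians from 1.14 to 1.69 in the 4 main classes on the left and from -0.04 to 0.56 on the right.

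Proteins of the mitoribosome that carry other symbols are listed apart, and 5 of these 7 genes were higher on the deposited scale and 2 after scaling, against 70.2% and 17.0% of all tested genes. The 2 called after scaling, Dap3 and Ptcd3, had WT means of 0.656 and 0.722, and Mrp63, among the 5, had one of 0.702. With WT means below 1 they passed the filter only through their Ela1-Myc values, so these calls are not read as support. Dap3, a GTP-binding protein of the small subunit's head, was at 0.226, 1.22 and 0.523 (WT) and 3.62, 4.38 and 4.25 (Ela1-Myc). It rose by 1.66 ± 0.30 log2 units (adjusted p = 0.000403) and by 0.82 ± 0.22 after scaling (adjusted p = 0.0364), a scaled call that held only without WT replicate 2 when 1 library was left out. Gadd45gip1, a large subunit protein at the tunnel exit, was at 0.469, 2.72 and 1.31 (WT) and 6.87, 2.58 and 6.47 (Ela1-Myc). Its groups overlapped, since Ela1-Myc replicate 2 lay below WT replicate 2, and its rise of 1.35 ± 0.41 (adjusted p = 0.0101; 0.34 after scaling) was lost without Ela1-Myc replicate 1 or 3.

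In the wider machinery of mitochondrial gene expression the genes called higher on the deposited scale were 9 of 9 translation factors, 18 of 20 assembly factors and 7 of 7 genes of mitochondrial transcription and DNA upkeep, with medians of 1.16, 1.23 and 1.16 log2 units, close to the 1.22 of all tested genes. Of all tested genes 70.2% were called higher on this scale. After scaling 2, 4 and 2 of them were called higher and 0 lower in limma, against 17.0% and 7.08% of all tested genes. Of the genes called after scaling, all but Tsfm had a WT mean below 1 and passed the filter only through their Ela1-Myc values. Gfm2, Taco1, Tfam, Polrmt and several others on these lists also had a WT mean below 1, so that they had to differ upward. A further 5, 3 and 2 genes in the files had a mean below 1 and were not tested. These counts are not read as support. Tufm, the elongation factor that brings transfer RNAs to the mitoribosome, was at 0, 8.27 and 0 (WT) and 28.5, 26.6 and 21.9 (Ela1-Myc), with WT replicates 1 and 3 listed at 0. Noa1, a GTPase of small subunit assembly, was at 1.05, 2.62 and 1.12 (WT) and 6.64, 3.66 and 5.73 (Ela1-Myc). Tfam, which packages mitochondrial DNA and helps to start its transcription, was at 0.287, 0.820 and 0.680 (WT) and 2.09, 2.23 and 3.41 (Ela1-Myc). Polrmt, the mitochondrial RNA polymerase, was at 0.581, 1.01 and 0.665 (WT) and 3.25, 2.04 and 2.91 (Ela1-Myc). All 4 genes had non-overlapping groups and rose, by 3.66, 1.31, 1.16 and 1.09 (adjusted p = 0.000593, 0.00566, 0.00233 and 0.00335), and none was called after scaling (adjusted p = 0.0617, 0.520, 0.147 and 0.415). The messages that mitoribosomes translate are encoded by mitochondrial DNA and were not analysed here.

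Other large gene groups of protein synthesis and respiration stood beside the mitoribosomal genes as follows. Of 77 cytosolic ribosomal protein genes 43 were higher, with a median log2 change of 2.00, and 1 after scaling, with a median of 0.47; many have close copies that share reads. Of 75 tested nuclear respiratory chain genes, chosen by symbol as above, 29 were higher and 1 lower, with a median of 1.44. Scaling left 3 higher and 2 lower around a median of -0.0026, and Atp5sl, which may not be a subunit gene, was among those called. For the mitoribosomal genes the same figures were 56 of 75 with a median of 1.47, and 9 with a median of 0.26. Of all tested genes 70.2% were higher and 0.239% lower on the deposited scale, and 17.0% and 7.08% after scaling. The differences between these groups of genes were not tested.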

How the data were processed

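Each deposited file holds, for 1 library, a value per gene whose column is headed FPKM and adjusted, per the file headers; the authors' adjustment is not stated in the sources used. The submitters' processing notes name these tools without roles: Cufflinks 2.0.2, TopHat2 2.0.4, Bowtie, FastQC 0.9.4, affy and CASAVA 1.8, with build GRCm38 (mm10). Libraries were stranded, with ERCC spike-in RNA, per the labels' protocols, which also state RNA integrity above 8.5, although the labels give lower numbers for 5 of the 6 libraries. Strand use in counting is not stated; 13 members overlap another coding gene and 4 have a named pseudogene, so their values are uncertain.

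All values were divided by 100000. Where a symbol had several rows, that of highest mean was used. Limma 3.58.1 (R 4.3.3) was run on log2(value + 1) for all 8802 genes whose mean over the libraries reached 1. The variance had an intensity trend and the group was the only term. Two-sided p-values were adjusted over all genes (Benjamini-Hochberg, threshold 0.05); log2 changes understate those of low genes. The fit was tested on simulated data. Alternatives were 2 pseudocounts, 2 filters, 3 scales, 2 variance models and leaving out each library. Figures were drawn with matplotlib 3.10.9.

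The members and gene lists were chosen with earlier results of these data known. The rule for named genes took 20 members and 6 related genes for their roles, those with the largest or smallest changes, those listed at 0 in WT, those called after scaling or called lower on any scale, and the most abundant, 50 in all; genes named for a promoter motif, a shared promoter region or an overlapping locus were added for that feature. Loci are those of the files, with starts counted from 1.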

Additional observations from a re-analysis of the deposited data

How the results depend on the processing

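The direction on the deposited scale, higher in Ela1-Myc, held for all 44 named members in every fit with another pseudocount (0.1 or 5), filter or variance model and in each fit without 1 library; it rests on the scale between libraries. The count of 56 higher genes, against 70.2% of all tested genes, was 55 and 61 with pseudocounts of 0.1 and 5. It was 50 without a filter, 63 without the intensity trend and 74 with array weights. The shares of all tested genes in these other fits are not given here, so their counts are not read as a result about the members. Among members above 0 in all 6 libraries the count was 54, against 68.7%. After median-of-ratios scaling it was 9 with either filter, against 17.0% and 9.21%. With the digestive enzymes left out and totals made equal it was 22, against 25.4%. Quantile normalization gave 8 higher and 8 lower genes, against 11.3% and 20.0%. The large and small subunit medians were 0.198 and 0.385 after median-of-ratios scaling, 0.169 and 0.275 when genes with a 0 were also dropped, -0.12 and 0.0991 under quantile normalization, and 0.526 and 0.766 with the enzymes left out. Leaving out 1 library gave 36 to 75 higher genes, and 1 to 21 after scaling, as the share of all tested genes ran from 49.5 to 81.1% and from 5.37 to 21.3%. The ratio of large to small subunit values became 2.14 in WT and 2.26 in Ela1-Myc with Mrps18a and Mrps30 counted as large and Mrps36 left out, 1.08 and 1.04 as a ratio of medians, and 1.88 in Ela1-Myc over members above 0 in all libraries. Of the 75 tested members 29 had a change below 0 after median-of-ratios scaling, 41 under quantile normalization and 9 with the enzymes left out. Among the 50 genes named by the rule, those that turned below 0 after median-of-ratios scaling, the same with either filter, were Mrpl10 -0.15, Mrpl17 -0.35, Mrpl30 -0.996, Mrpl38 -0.0094, Mrpl42 -0.67, Mrpl44 -0.27, Mrpl50 -0.017, Mrpl51 -0.75, Mrpl52 -0.043, Mrpl53 -0.85, Mrpl55 -0.59, Mrps14 -0.16, Mrps16 -0.29, Mrps18a -0.29, Mrps21 -0.89, Mrps26 -0.0081, Mrps30 -0.17, Mrps34 -0.81 and Mrps36 -0.31. Under quantile normalization the named genes below 0 were Mrpl10 -0.36, Mrpl11 -0.13, Mrpl17 -0.73, Mrpl30 -1.12, Mrpl38 -0.20, Mrpl42 -0.78, Mrpl44 -0.51, Mrpl50 -0.30, Mrpl51 -0.94, Mrpl52 -0.13, Mrpl53 -0.95, Mrpl55 -0.83, Mrps14 -0.42, Mrps15 -0.16, Mrps16 -0.44, Mrps18a -0.47, Mrps21 -1.005, Mrps26 -0.23, Mrps30 -0.44, Mrps34 -0.95, Mrps36 -0.55, Noa1 -0.082, Polrmt -0.26 and Tfam -0.13. With the enzymes left out the named genes below 0 were Mrpl17 -0.058, Mrpl30 -0.58, Mrpl42 -0.25, Mrpl51 -0.37, Mrpl53 -0.44, Mrpl55 -0.23, Mrps21 -0.48 and Mrps34 -0.40. Among scaled changes of the named genes, leaving out 1 library turned the sign of 7, which ranged from -0.45 to 0.27 for Mrpl38, -0.13 to 0.12 for Mrpl50, -0.22 to 0.28 for Mrpl52, -0.19 to 0.19 for Mrps15, -0.089 to 1.04 for Mrps18b, -0.29 to 0.21 for Mrps26 and -0.43 to 0.084 for Mrps30. The scale sets these differences by construction; which scale is nearer to RNA per cell was not tested. No paired analysis was possible because the labels give no replicate numbers and nothing pairs the libraries.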

Other observations

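Shorter members were the more abundant. Over 75 members with a transcript length from GENCODE vM21, the log2 mean level per length correlated with log2 transcript length at Pearson r = -0.53 and Spearman rho = -0.52, against -0.37 and -0.36 over 7830 tested genes; these are correlations across genes, which share libraries and a length-scaled unit and are not independent replicates. The 25 shortest members, 405 to 783 nucleotides long, had a median level of 17.0, the middle 25 one of 9.43 and the 25 longest one of 4.69. Of the 9 genes called after scaling, 0 were among the 25 shortest, 4 in the middle 25 and 5 among the 25 longest, against 17.0% of all tested genes. As 7 of the 9 passed the filter only through their Ela1-Myc values, these counts are not read as a link with length. The log2 change after scaling correlated with length at r = 0.12 over the 75 members.

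The order of levels among members was similar in both groups, with a Spearman rho of 0.916 between the WT and Ela1-Myc means of the 71 members above 0 in all 6 libraries. The spread between libraries was not: the median coefficient of variation was 61.3% in WT and 14.6% in Ela1-Myc on the deposited scale, and 30.4% and 23.2% after median-of-ratios scaling. The same figures for all tested genes are not given here, so the spread is not read as a trait of the members. WT replicate 1 held the lowest WT value for 59 members and WT replicate 3 for 17.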
